A study of Mus musculus with 14 samples.

Results

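Of the 16593 genes with a symbol on the bead array, 8 were followed here as a set of secreted chemokines and surface receptors of innate immunity, namely Ccl2, Ccl7, Cxcl12, Cxcl1, Cxcl10, Cx3cl1, Cd14 and Fas. All 14 probes that the platform annotation gives to these symbols were taken, of 25697 probes in all. The genes were selected on their log2 levels in these same arrays, so their values are given as a description with no test. The mouse study hybridised 2 arrays for each of 7 groups of cultured cells. Brain-NSCs were neural stem cells grown from the brains of 13.5 dpc fetuses (days after mating) heterozygous for both the ROSA26 (neo/lacZ) and OG2 (Oct4-GFP) transgenes. MEFs were embryonic fibroblasts of the same stage and genotype. ESCs came from 3.5 dpc OG2 blastocysts and were cultured on inactivated fibroblast feeders. The study's methods call these ESCs heterozygous double transgenic but name only OG2, so whether they carried ROSA26 is not clear. iPS cells had been made from such MEFs with retroviral Oct4, Sox2, Klf4 and c-Myc. iPS-NSCs #1 and iPS-NSCs #3 were 2 lines differentiated from them in the dish. iPS-cNSCs were neural stem cells of iPS cell origin taken from the brains of 13.5 dpc chimeric embryos and purified with neomycin. NED-NSCs were the X-gal-negative neural stem cells of chimeric embryos, also of 13.5 dpc, and came from the B6C3F1 host, so they carried neither the transgenes nor the reprogramming history. They may have differed from the other neural stem cells in strain as well, since the study's methods give no background strain for the transgenic mice. No source used here says whether the 2 arrays of a group were from separate cultures, and all p-values rest on array-to-array scatter that may be technical alone. All neural stem cell groups were grown with EGF and bFGF.

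Chemokines are small secreted proteins that draw leukocytes along a gradient by way of G-protein-coupled receptors. Their names follow the spacing of the first cysteines, as CC, CXC and CX3C. Many CC and CXC chemokine genes are switched on by NF-kB or interferon signalling, whereas Cxcl12 and Cx3cl1 also act in the unchallenged brain, in progenitor migration and in signalling between neurons and microglia. Cd14 presents bacterial lipopolysaccharide to Toll-like receptor 4 and its partner Ly96, and Fas is the death receptor that recruits caspase 8.

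Values are the deposited log2 signals, on which 1 unit is a 2-fold difference, and 7.7 was taken as the level of background. Where the scanner's own detection p could be read, its 0.05 limit and the 7.7 limit sorted 98.2 to 99.8% of probes the same way on each array. Replicate arrays of a group correlated across probes at 0.9891 to 0.9984. The arrays of MEFs and iPS-cNSCs had lowest raw signals of 79.8 to 96.2, against 119.2 to 132.2 on the arrays of brain-NSCs, NED-NSCs and ESCs, and the part of this gap in the results was not tested. As a check of the labels, Col1a1 stood at 14.94 ± 0.00 in MEFs (mean ± SD, n = 2, as throughout), Pou5f1 at 12.46 ± 0.02 in ESCs, and Nes between 11.57 and 12.18 in the 5 neural stem cell groups. Sox2 was above background in all 5, whereas Pax6 and Msi1 were above background on no array of any of them. These are bulk cultures, in which fewer cells of a type and less RNA per cell cannot be told apart.

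The pair of CC chemokines that act on monocytes, Ccl2 and Ccl7, had their highest level in MEFs. Ccl2 was at 9.72 and 9.73 on the arrays of MEFs, at 8.24 and 8.49 in iPS-NSCs #1, at 8.34 and 8.26 in NED-NSCs and at 8.13 and 8.35 in brain-NSCs. It was at 7.52 and 7.72 in ESCs, at 7.46 and 7.53 in iPS-NSCs #3 and at 7.46 and 7.49 in iPS-cNSCs. MEFs thus stood alone, 1.36 above the next group, and the other groups formed 2 tiers. The iPS-NSCs #1, NED-NSCs and brain-NSCs overlapped in their arrays. At or near background, iPS-NSCs #3 overlapped both ESCs and iPS-cNSCs, which did not overlap each other. Relative to brain-NSCs, Ccl2 was 2.8-fold higher in MEFs and at least 1.45-fold lower in both iPS-cNSCs and iPS-NSCs #3, where the bound sets the undetected group at about 7.7.

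Ccl7 spanned the widest range of the members, 5.28 on the log2 scale. It was at 12.66 and 12.67 in MEFs, at 9.51 and 9.63 in NED-NSCs, at 9.21 and 9.41 in brain-NSCs and at 9.17 and 9.03 in ESCs. It was at 8.31 and 8.20 in iPS-NSCs #1, at 7.55 and 7.73 in iPS-NSCs #3 and at 7.41 and 7.39 in iPS-cNSCs. No neighbouring groups in this order overlapped, so NED-NSCs and brain-NSCs were above the 3 neural stem cell groups of iPS origin, and iPS-cNSCs lay lowest, below background. Against brain-NSCs, Ccl7 was 10.2-fold higher in MEFs, 2.08-fold lower in iPS-NSCs #1, 3.2-fold lower in iPS-NSCs #3 and at least 3.06-fold lower in iPS-cNSCs. The value for iPS-NSCs #1 lies at the 2-fold limit, since the difference of -1.06 became -0.96 without array 2 of brain-NSCs. In ESCs, where Ccl7 was 1.16-fold below brain-NSCs, 6 of 10 fibroblast markers were above background on both arrays, against 4 in brain-NSCs and 10 in MEFs, and their summed signal was 11.78 to 11.82, against 11.29 to 11.30 and 16.35 to 16.46. Col1a1 was at 8.75 ± 0.10 in ESCs, against 7.35 to 7.51 in the neural stem cell groups, whereas Lum, Postn and Pdgfrb were above background on no ESC array and Twist1, at 8.02 ± 0.17, lay below brain-NSCs. The part of the feeder cells in the ESC value was not tested.

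**Figure D1:**
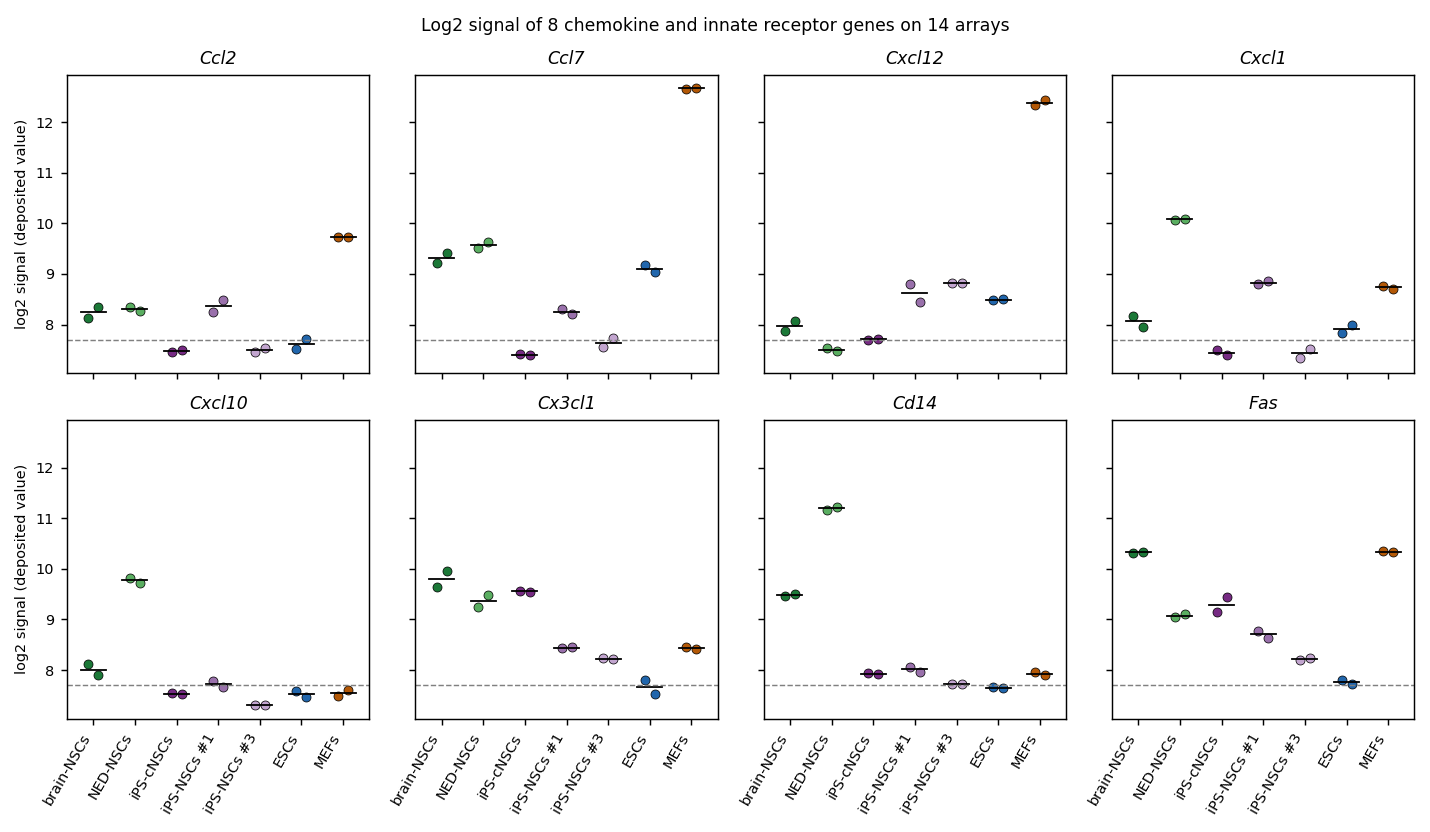
Deposited log2 signal (vertical axis) of the brightest probe of each of the 8 genes on 14 arrays, by group (horizontal axis). Points are single arrays, 2 per group, short lines are group means and the dashed line is the background level of 7.7. Ccl7 and Cxcl12 exceed 12 in MEFs alone, and Cd14 exceeds 11 in NED-NSCs alone.

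Cxcl12, the CXC chemokine that guides neural and blood progenitors through Cxcr4, was also far highest in MEFs. Its brightest probe (ILMN_2658908) was at 12.34 and 12.43 in MEFs, at 8.83 and 8.83 in iPS-NSCs #3, at 8.81 and 8.45 in iPS-NSCs #1 and at 8.48 and 8.50 in ESCs. It was at 7.87 and 8.07 in brain-NSCs, at 7.7 and 7.72 in iPS-cNSCs and at 7.54 and 7.47 in NED-NSCs. Both in vitro lines therefore lay above the 3 cultures taken from a brain, with no overlap, and iPS-NSCs #1 overlapped ESCs. Relative to brain-NSCs the level was 21.3-fold higher in MEFs, 1.58-fold higher in iPS-NSCs #1, 1.82-fold higher in iPS-NSCs #3 and at least 1.21-fold lower in NED-NSCs.

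The 5 probes of Cxcl12 were not equally informative, and the platform annotation assigns them to 3 different transcripts. The probe ILMN_2737302 was at 9.84 and 9.90 in MEFs and ILMN_3158250 at 8.78 and 8.84, and for both MEFs were the highest group. ILMN_3158250 put both in vitro lines at the brain-NSC level, with 7.95 ± 0.08 and 7.93 ± 0.12 against 7.93 ± 0.03. ILMN_2737302 did so near background, with 7.71 ± 0.06 and 7.58 ± 0.09 against 7.60 ± 0.09. The rise of these lines over brain-NSCs seen with the brightest probe was thus seen with neither. With ILMN_3158250 iPS-cNSCs were the lowest group, at 7.50 ± 0.05, below NED-NSCs at 7.77 ± 0.02. The remaining 2 probes were above background on no array, MEFs included. With the mean of the 2 kept probes, the difference of Cxcl12 between MEFs and brain-NSCs was 2.65 in place of 4.42 on the log2 scale.

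**Figure D2:**
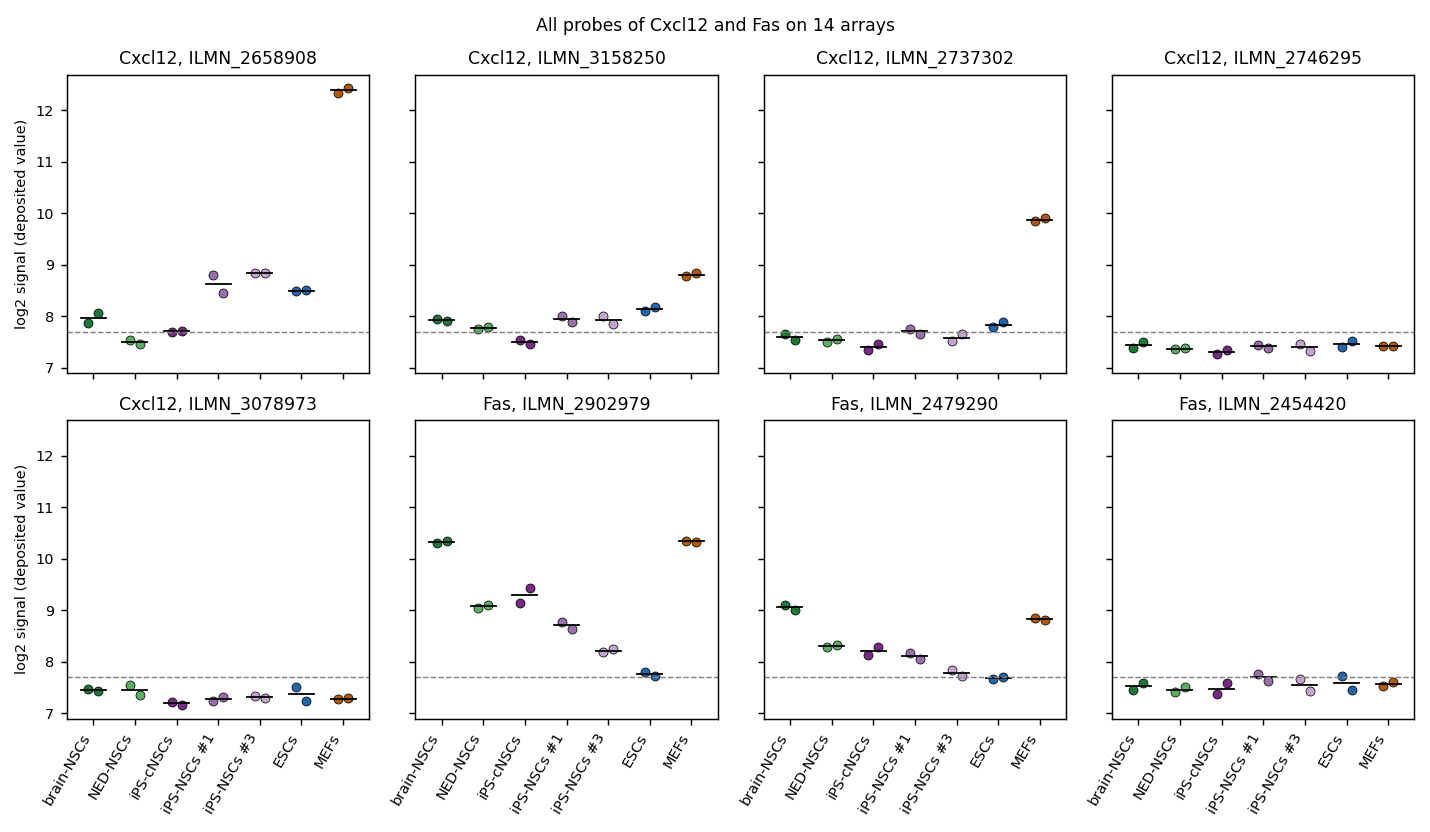
Deposited log2 signal (vertical axis) of all 5 probes of Cxcl12 and all 3 probes of Fas on 14 arrays, by group (horizontal axis), with single arrays as points, group means as lines and the background level of 7.7 dashed. For Cxcl12, 3 probes are highest in MEFs and 2 stay under the dashed line, and 1 Fas probe stays near it in every group.

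Cxcl1 and Cxcl10 were both highest in NED-NSCs. Cxcl1 draws neutrophils through Cxcr2, and Cxcl10 is an interferon-induced ligand of Cxcr3 on T cells. Promoter windows were taken from RefSeq (GRCm38.p6) for the 5 members of 8 that had an entry. The stretch from -220 to -41 before the start of the RefSeq gene is shown for these 2 genes because they shared this pattern, and for Cxcl12 because it did not. Capitals mark GGNNNTTCC, an NF-kB type of pattern, and in Cxcl10 also GAAANNGAA, an interferon response type of pattern (first run of capitals), both searched on either strand.
Cxcl1: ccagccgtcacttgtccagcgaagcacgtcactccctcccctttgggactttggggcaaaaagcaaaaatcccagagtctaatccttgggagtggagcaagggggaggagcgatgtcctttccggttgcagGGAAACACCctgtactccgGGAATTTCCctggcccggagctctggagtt
Cxcl10: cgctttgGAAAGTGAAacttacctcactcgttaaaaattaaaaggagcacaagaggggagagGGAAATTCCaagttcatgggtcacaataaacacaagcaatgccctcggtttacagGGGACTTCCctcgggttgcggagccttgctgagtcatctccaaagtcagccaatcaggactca
Cxcl12: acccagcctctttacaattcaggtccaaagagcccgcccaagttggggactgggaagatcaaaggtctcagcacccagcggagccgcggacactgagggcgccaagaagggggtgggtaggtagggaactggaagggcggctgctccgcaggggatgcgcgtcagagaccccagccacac
These stretches lie at chr5:90891025-90891204 on the plus strand, chr5:92348930-92349109 on the minus strand and chr6:117168315-117168494 on the plus strand. GGNNNTTCC occurred in 15.7% of 32851 windows of 250 upstream bases. Its first base was at -89 and, on both strands, at -70 in Cxcl1, at -158 on both strands and at -103 in Cxcl10, and at -71 in Cx3cl1, and it was not found in the windows of Cxcl12 and Fas. GAAANNGAA occurred in 7.13% of windows, and among the 5 members only in Cxcl10, at -213. Of Lcn2, Gbp2 and Socs3, 3 further genes that were higher in NED-NSCs, none held GGNNNTTCC in its window and Gbp2 held GAAANNGAA at -58. In all, 9 letter patterns were searched after the members' levels were known, and a match describes letters only. The commonest of the 9, in 45.8% of windows, was found in Cxcl1 and Cxcl10. It also lay at -36 in Cxcl12, -202 and -48 in Fas, -102 in Lcn2 and -97 in Socs3, but not in Cx3cl1 or Gbp2. A pattern in 16.5% of windows was in Cxcl1, Cxcl10 and, at -102, Lcn2. A rarer pattern, in 4.65%, was in Cxcl1 and Cxcl10 only of these genes. The contrast of Cxcl1 and Cxcl10 with Cxcl12, Fas, Lcn2 and Socs3 thus depended on the pattern shown.

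Cxcl1 was at 10.07 and 10.08 in NED-NSCs, at 8.80 and 8.86 in iPS-NSCs #1 and at 8.76 and 8.71 in MEFs. It was at 8.16 and 7.96 in brain-NSCs, at 7.84 and 7.99 in ESCs, at 7.49 and 7.40 in iPS-cNSCs and at 7.34 and 7.52 in iPS-NSCs #3. NED-NSCs stood 1.24 above the next group, brain-NSCs overlapped ESCs, and both iPS-cNSCs and iPS-NSCs #3 were under background. Cxcl1 was 4.04-fold higher in NED-NSCs than in brain-NSCs and at least 5.17-fold lower in iPS-cNSCs than in NED-NSCs, which came from the same kind of chimeric embryo. The in vitro lines also differed, with iPS-NSCs #1 at least 2.19-fold above iPS-NSCs #3.

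Cxcl10 was at 9.82 and 9.73 in NED-NSCs, at 8.12 and 7.90 in brain-NSCs and at 7.79 and 7.67 in iPS-NSCs #1. It was at 7.49 and 7.61 in MEFs, at 7.54 and 7.52 in iPS-cNSCs, at 7.58 and 7.47 in ESCs and at 7.32 and 7.31 in iPS-NSCs #3. Only NED-NSCs and brain-NSCs were above background on both arrays, so Cxcl10 did not pass the filter that required 7.7 on at least 7 of 14 arrays and was left out of the counts below. NED-NSCs were 3.39-fold above brain-NSCs and at least 4.21-fold above iPS-cNSCs. The 2 genes were thus alike in standing highest in NED-NSCs, but iPS-NSCs #1 and MEFs carried Cxcl1 with Cxcl10 at 7.79 or less.

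Cx3cl1, or fractalkine, the membrane-tethered chemokine that neurons use to signal to microglia, followed the brain-derived cultures. It was at 9.65 and 9.96 in brain-NSCs, at 9.56 and 9.55 in iPS-cNSCs and at 9.25 and 9.48 in NED-NSCs. It was at 8.43 and 8.46 in iPS-NSCs #1, at 8.46 and 8.42 in MEFs, at 8.24 and 8.21 in iPS-NSCs #3 and at 7.81 and 7.52 in ESCs. The 3 cultures taken from a brain were all higher than the 2 in vitro lines, of which iPS-NSCs #1 overlapped MEFs and iPS-NSCs #3 was lower. Against brain-NSCs the fall was 2.56-fold in iPS-NSCs #1, 2.99-fold in iPS-NSCs #3, 2.58-fold in MEFs and 4.4-fold in ESCs. For iPS-cNSCs it was 1.19-fold, and this difference of -0.25 turned to 0.57 when raw signals were centred on each array's median.

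Cd14 divided the neural stem cell groups most clearly. It was at 11.17 and 11.23 in NED-NSCs and at 9.47 and 9.51 in brain-NSCs. It was at 8.07 and 7.96 in iPS-NSCs #1, at 7.96 and 7.90 in MEFs, at 7.94 and 7.92 in iPS-cNSCs, at 7.73 and 7.73 in iPS-NSCs #3 and at 7.66 and 7.65 in ESCs. NED-NSCs and brain-NSCs stood well apart from all other groups, whose arrays lay between 7.65 and 8.07. Cd14 was 3.26-fold higher in NED-NSCs than in brain-NSCs, and 2.95-fold lower in iPS-cNSCs, 2.78-fold lower in iPS-NSCs #1 and 3.39-fold lower in iPS-NSCs #3. Between the cultures from chimeric brains, iPS-cNSCs were 9.64-fold below NED-NSCs.

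Since Cd14 and the chemokines are also made by macrophages and microglia, 14 of 16 markers of those cells that had a probe were read beside them. In NED-NSCs and brain-NSCs only Aif1 of the 14 was above background on both arrays, at 7.83 ± 0.01 and 7.92 ± 0.05, while Ptprc, Itgam, Adgre1, Trem2, Tyrobp, C1qa, C1qb, C1qc, Fcgr3, Fcer1g, Lyz2 and Spi1 were above it on no array of either group. Their summed signal on the log2 scale was 11.22 to 11.30 in NED-NSCs, 11.25 to 11.32 in brain-NSCs and 11.22 to 11.27 in iPS-cNSCs, a sum made up almost wholly of probes at background. In MEFs 10 of the 14 were above background, with Lyz2 at 10.59 ± 0.24, and Cd14 was at 7.93 ± 0.04. Of 9 astrocyte markers, 6 were above background on both arrays in NED-NSCs, 4 in brain-NSCs and 8 in iPS-cNSCs, with summed signals of 13.96 to 14, 13.80 to 13.89 and 14.77 to 14.86. Gfap was above background on both arrays of NED-NSCs only, at 8.01 ± 0.03, but Aqp4, S100b and Sparcl1 were above it on no NED-NSC array and Gja1 was lowest there, at 8.33 ± 0.09 against 10.12 ± 0.01 in brain-NSCs and 13.9 ± 0.13 in iPS-cNSCs. Apoe was at 11.05 ± 0.01 in NED-NSCs, 7.73 ± 0.13 in brain-NSCs and 12.01 ± 0.03 in iPS-cNSCs. Slc1a2 was highest in NED-NSCs, at 9.08 ± 0.05 against 8.89 ± 0.07 in brain-NSCs and 7.97 ± 0.09 in iPS-cNSCs. The part of such cells in the NED-NSC values was not tested. All 10 fibroblast markers were above background in MEFs, where Ccl2, Ccl7 and Cxcl12 were highest, against 2 in NED-NSCs and 4 in brain-NSCs. Their summed signal was 16.35 to 16.46 in MEFs, 12.11 to 12.18 in NED-NSCs and 11.29 to 11.3 in brain-NSCs. Fbln2 was higher in NED-NSCs than in brain-NSCs, at 11.38 ± 0.05 against 8.34 ± 0.07. Twist1 was lower there, at 7.49 ± 0.09 against 9.24 ± 0.03. The part of fibroblasts in these values was not tested.

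The boundary itself passed through several members. The values just inside the background level were 7.7 and 7.72 for Cxcl12 in iPS-cNSCs, 7.72 for Ccl2 and for Fas in ESCs, and 7.73 for Ccl7 and Cd14 in iPS-NSCs #3. Those just outside were 7.67 for Cxcl10 in iPS-NSCs #1 and 7.66 and 7.65 for Cd14 in ESCs.

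Fas was above background on every array. Its brightest probe was at 10.35 and 10.33 in MEFs, at 10.31 and 10.34 in brain-NSCs, at 9.15 and 9.44 in iPS-cNSCs and at 9.04 and 9.11 in NED-NSCs. It was at 8.77 and 8.64 in iPS-NSCs #1, at 8.19 and 8.24 in iPS-NSCs #3 and at 7.80 and 7.72 in ESCs. With this probe MEFs and brain-NSCs overlapped at the top and no other neighbouring groups did. Relative to brain-NSCs, Fas was 2.04-fold lower in iPS-cNSCs, 2.37-fold in NED-NSCs (no longer over 2-fold with the mean of its 2 kept probes, at -1 on the log2 scale), 3.06-fold in iPS-NSCs #1, 4.3-fold in iPS-NSCs #3 and 5.9-fold in ESCs. The iPS-cNSC difference of -1.03 was at the limit, and was -0.88 without array 1 of iPS-cNSCs and -0.24 with raw signals centred on each array's median. A second Fas probe (ILMN_2479290) gave 9.06 ± 0.06 in brain-NSCs, 8.83 ± 0.02 in MEFs, 8.30 ± 0.03 in NED-NSCs and 8.21 ± 0.10 in iPS-cNSCs. It gave 8.11 ± 0.08 in iPS-NSCs #1, 7.78 ± 0.08 in iPS-NSCs #3 and 7.69 ± 0.03 in ESCs. With it brain-NSCs rather than MEFs were highest, iPS-cNSCs lay below NED-NSCs, and iPS-cNSCs overlapped iPS-NSCs #1. Its fall from brain-NSCs was under 2-fold in iPS-NSCs #1 (1.93), iPS-cNSCs (1.81) and NED-NSCs (1.69), and over it in iPS-NSCs #3 (2.42) and ESCs (2.59). The remaining probe reached background on both arrays of no group.

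**Figure D3:**
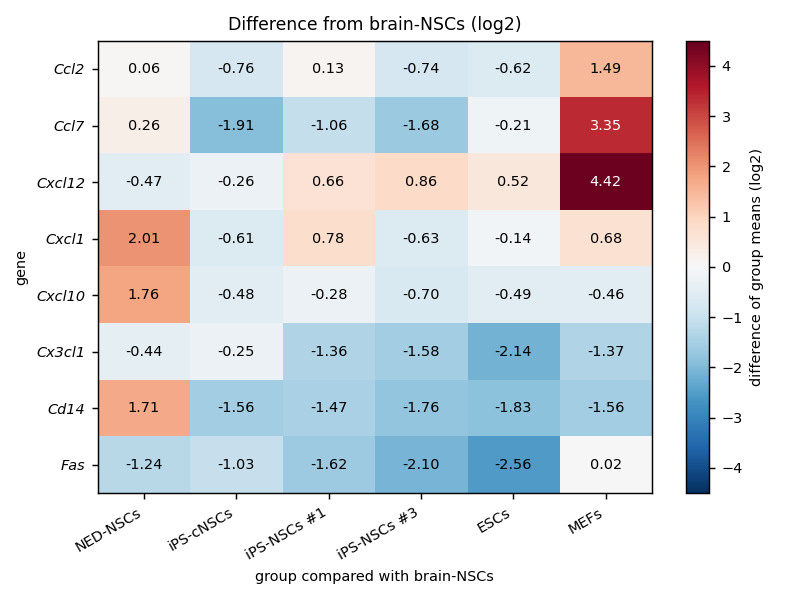
Difference between the mean of each group (horizontal axis) and that of brain-NSCs on the log2 scale, for the brightest probe of the 8 genes (vertical axis), with red for higher and blue for lower and 2 arrays per group. Cd14 is negative in every group but NED-NSCs (1.71), and Cxcl12 in MEFs is the highest value (4.42).

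The receptors of these ligands were mostly below background. Ccr2, which binds Ccl2 and Ccl7, and Cxcr3, the receptor of Cxcl10, were above background on no array. The same was true of Ackr3, which binds Cxcl12, while Cx3cr1, Cxcr2 and the Fas ligand Fasl reached 7.84 at most and on both arrays of no group. Cxcr4 was the exception, at 7.72 to 8.09 in the 5 neural stem cell groups and at 7.52 to 7.65 in ESCs and MEFs, so it was not above background in MEFs, where its ligand Cxcl12 was highest. Ly96, which pairs with Toll-like receptor 4, was at 8.08 and 8.26 in brain-NSCs, 8.37 and 8.42 in NED-NSCs and 7.87 and 7.65 in ESCs. It was at 8.92 and 8.94 in iPS-cNSCs, 9.10 and 8.98 in iPS-NSCs #1, 9.26 and 9.29 in iPS-NSCs #3 and 10.01 and 10.14 in MEFs, so that the neural stem cells of iPS origin had more Ly96 and less Cd14 than NED-NSCs and brain-NSCs. Tlr4 itself was under 7.7 on both arrays of brain-NSCs and NED-NSCs with either probe, although Cd14 was highest there. Its brighter probe was at 7.97 and 8.06 in iPS-cNSCs, 7.95 and 8 in iPS-NSCs #1 and 8.28 and 8.27 in MEFs. The same probe was at 7.83 and 7.58 in iPS-NSCs #3 and 7.33 and 7.38 in ESCs.

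Of the 8 members, 7 had a probe that passed the filter, 9 of the 14 probes in all. A gene can pass through the groups where it is high, so the counts of members are given as a record beside the share of all 8435 tested genes that passed the same limits (limma, Benjamini-Hochberg adjusted p under 0.05 and over 2-fold), and nothing is read from them. In iPS-NSCs #1 against brain-NSCs 4 of 7 members were lower (Ccl7, Cx3cl1, Cd14 and Fas), with 4.87% of all genes called, 2.92% higher and 1.96% lower. In iPS-NSCs #3 the same 4 were lower, with 6.67% called, 3.36% higher and 3.32% lower. In iPS-cNSCs 3 were lower (Ccl7, Cd14 and Fas), with 6.2% called, 3.69% higher and 2.51% lower. These comparisons share the brain-NSC arrays. In NED-NSCs 2 were higher (Cxcl1 and Cd14) and 1 lower (Fas), with 4.18% called, 2.51% higher and 1.67% lower. In ESCs 3 were lower (Cx3cl1, Cd14 and Fas), with 21% called, 8.51% higher and 12.5% lower. In MEFs 3 were higher (Ccl2, Ccl7 and Cxcl12) and 2 lower (Cx3cl1 and Cd14), with 24.7% called, 11.1% higher and 13.6% lower. Between the in vitro lines 1 was higher in iPS-NSCs #1 (Cxcl1), with 3.02% called, 1.9% higher and 1.13% lower. In iPS-cNSCs against NED-NSCs 3 were lower (Ccl7, Cxcl1 and Cd14), with 5.37% called, 3.09% higher and 2.28% lower. Every gene over 2-fold also passed the adjusted p, so the fold limit alone decided these calls.

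Around the members, 190 genes in 7 lists of related function were read, of which 173 had a named probe and 69 were tested. The lists were chosen with earlier results of these data known, so their p-values are no independent support for the pattern of the members. In NED-NSCs against brain-NSCs 4 of the 69 rose and 0 fell, 5.8% against 4.18% of all genes, with a median of 0.11 against -0.01. Lcn2, the iron-binding acute phase protein lipocalin 2, rose from 9.59 and 9.55 to 12.95 and 12.85, a 10.1-fold difference (adjusted p = 1.2e-12). Gbp2, an interferon-induced guanylate-binding protein, rose from 8.59 and 8.71 to 11.07 and 10.98, or 5.19-fold (adjusted p = 6.3e-12). Socs3, a feedback inhibitor of cytokine signalling, rose 2.11-fold (adjusted p = 1e-07), and the death receptor Tnfrsf21 rose by 1.05 on the log2 scale, named to complete the count and chosen after its values were seen. A second Tnfrsf21 probe was at 9.82 and 9.76 in NED-NSCs against 9.21 and 9.10 in brain-NSCs, a difference under 2-fold.

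In iPS-cNSCs against brain-NSCs 1 of the 69 rose and 4 fell, 7.25% against 6.2%, with a median of 0.03 against -0.05. Il18, a cytokine of the interleukin-1 family, rose from 9.19 and 9.20 to 10.79 and 10.83 (adjusted p = 3.9e-09). Lcn2 fell to 7.32 and 7.25, at least 3.66-fold below brain-NSCs (adjusted p = 6.3e-11). Ifitm3, an interferon-induced membrane protein that restricts virus entry, fell by 2.02 (adjusted p = 3.2e-10), Tnfaip3, a negative regulator of NF-kB, was at least 1.96-fold lower, and Socs3, named to complete the count and chosen after its values were seen, fell by 1.05. Against NED-NSCs, 1 gene rose and 6 fell in iPS-cNSCs, 10.1% against 5.37%, with a median of -0.18 against -0.06. This balance turned with raw signals centred on each array's median, to 15 higher and 4 lower, and that against brain-NSCs to 12 higher and 3 lower, while the same setting moved the median of all genes to 0.71 and 0.56. With the deposited values, Lcn2 was at least 36.8-fold lower in iPS-cNSCs than in NED-NSCs (adjusted p = 1.5e-15). Gbp2 was 8.31-fold lower at 7.96 and 7.97 (adjusted p = 2.6e-13), and Socs3 was 4.36-fold lower (adjusted p = 3.3e-11). Cxcl1, Cxcl10 and Cd14 had their lower values on the same arrays.

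**Figure D4:**
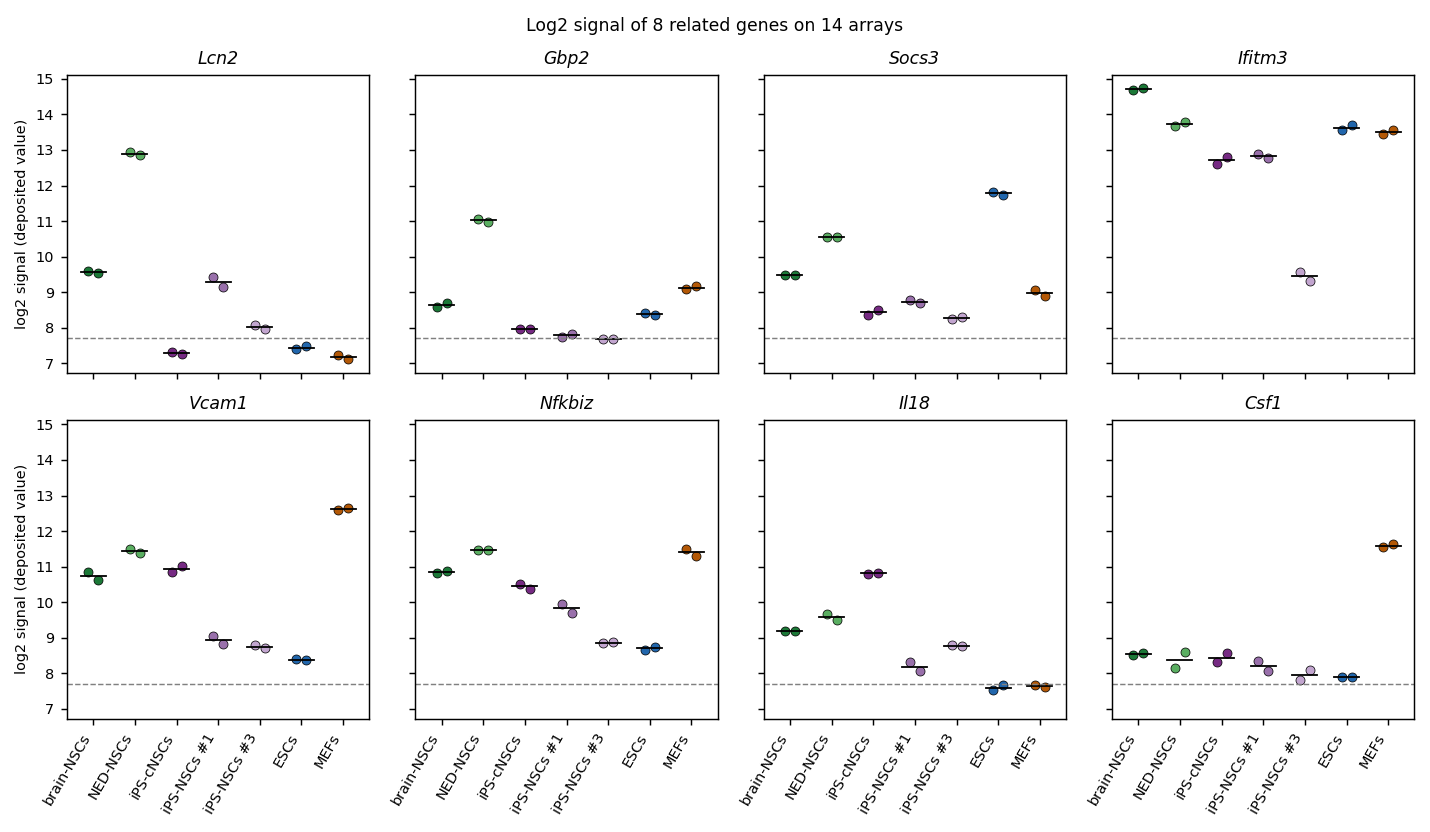
Deposited log2 signal (vertical axis) of 8 genes of the related lists on 14 arrays, by group (horizontal axis), with single arrays as points, group means as lines and the background level of 7.7 dashed. Lcn2 and Gbp2 are highest in NED-NSCs, and Ifitm3 is lowest in iPS-NSCs #3, at 9.58 and 9.32.

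Several of these genes were lower in the in vitro lines than in brain-NSCs. In iPS-NSCs #1, 2 of the 69 rose and 5 fell, 10.1% against 4.87%, with a median of -0.06 against -0.02. In iPS-NSCs #3, 3 rose and 7 fell, 14.5% against 6.67%, with a median of -0.09 against -0.01. Vcam1, an adhesion molecule for leukocytes that neural stem cells also carry, fell 3.49-fold in iPS-NSCs #1 (adjusted p = 1.4e-09) and 3.93-fold in iPS-NSCs #3 (adjusted p = 3e-10). Ifitm3 fell 3.71-fold in iPS-NSCs #1 (adjusted p = 7.4e-10) and 38.6-fold in iPS-NSCs #3 (adjusted p = 5.3e-15). Ifit2, an interferon-induced gene, fell by 1.37 in iPS-NSCs #1 (adjusted p = 9.2e-08), and Nfkbiz, an NF-kB cofactor, fell by 1.99 in iPS-NSCs #3 (adjusted p = 1.8e-10). Both were lower in the other line too, where they were not among the 3 largest falls. Ifit2 was at 8.45 and 8.35 in iPS-NSCs #3 against 9.79 and 9.90 in brain-NSCs. Nfkbiz was at 9.96 and 9.71 in iPS-NSCs #1 against 10.82 and 10.89. Pf4, a CXC chemokine best known from platelets, rose in both lines, to 9.49 and 9.64 and to 9.47 and 9.45 from 8.11 and 8.02 (adjusted p = 1.1e-09 and 1.7e-09). Tab2, an adaptor of Toll-like receptor signalling, rose 2.51-fold in iPS-NSCs #1, and Tnfrsf21 and Ly96 rose 2.17-fold and 2.15-fold in iPS-NSCs #3. Each was also above brain-NSCs on both arrays of the other line, by less.

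Compared with each other, iPS-NSCs #1 had 3 of the 69 genes higher than iPS-NSCs #3 and 0 lower, 4.35% against 3.02%, with a median of 0.06 against -0.03. Ifitm3 was 10.4-fold higher (adjusted p = 1.4e-12), Lcn2 2.4-fold higher (adjusted p = 9.6e-08) and Tnfaip3 at least 1.89-fold higher (adjusted p = 1.2e-07). Cxcl1 was higher in iPS-NSCs #1 as well, as given above.

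In MEFs 14 of the 69 rose and 4 fell, 26.1% against 24.7%, with a median of 0.27 against -0.14. Casp8, the caspase that Fas recruits, was at 10.69 and 10.70 against 7.51 and 7.49, at least 7.97-fold higher (adjusted p = 1.9e-14). Osmr, the oncostatin M receptor, rose 8.68-fold (adjusted p = 3.3e-14) and the macrophage growth factor Csf1 8.22-fold (adjusted p = 1.8e-11). Of the 5 other chemokine ligands tested, 3 rose in MEFs (Ccl25, Ccl27a and Cxcl14, chosen after their values were seen) and 0 fell. Tnfrsf21 fell 6.35-fold, Lcn2 was at least 3.66-fold lower and Il18 at least 2.81-fold lower.

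In ESCs 7 of the 69 rose and 10 fell, 24.6% against 21%, with a median of -0.23 against -0.05. Socs3 was at 11.83 and 11.73, its highest level, 4.91-fold above brain-NSCs (adjusted p = 1.5e-12), the receptor of bacterial peptidoglycan Nod1 rose 4.54-fold (adjusted p = 4.3e-12) and the chemokine Ccl27a was at least 2.84-fold higher. Ifi27 fell 6.3-fold, Tnfrsf21 6.01-fold and Vcam1 5.04-fold (adjusted p = 9.5e-12, 3.9e-13 and 8.8e-12).

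**Figure D5:**
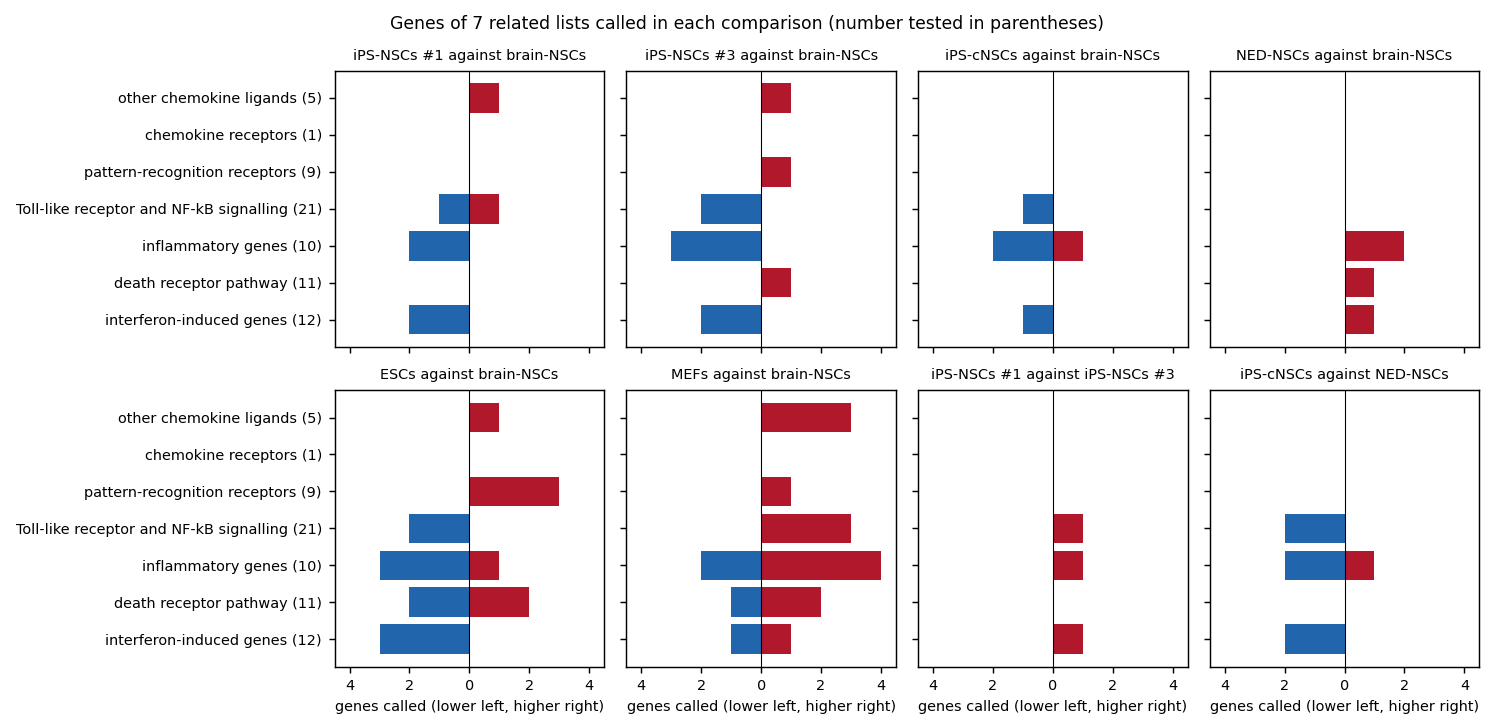
Number of genes called higher (red, right) and lower (blue, left) on the horizontal axis in each of 7 lists (vertical axis, with the number tested) for the 8 comparisons, by limma at the limits given in the text. MEFs have the most genes called higher (14) and ESCs the most called lower (10).

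The other listed genes with a named probe had not passed the filter, among them 29 chemokine ligands and 22 chemokine receptors, of which 7 and 3 were above background on both arrays of at least 1 group.

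Genes whose group means ran most like a member's were sought among 4831 genes spanning at least 1 log2 unit, as Pearson's r over 7 group means, which shared their arrays. For the 3 members highest in MEFs these were Hs3st3a1 with Ccl2 (0.984), Nxn with Ccl7 (0.994) and Ostf1 with Cxcl12 (0.993). For Cd14 they were Casp4 and Egr2 (both 0.963). Casp4, the mouse sensor of lipopolysaccharide in the cytosol, had means of 10.62 in NED-NSCs and 8.93 in brain-NSCs and 7.45 to 8.49 in the other 5 groups. Cxcl1 ran most like Adcy2 (0.903), Cx3cl1 like Inpp5f (0.974) and Fas like Zmat3 (0.957). Among the members, the pairs that ran most alike over the same means were Cxcl10 and Cd14 (0.96), Ccl2 and Ccl7 (0.91) and Cxcl1 and Cxcl10 (0.84). Such an r can rest largely on the 1 group that is highest for both genes. That group was MEFs for Ccl2 and Ccl7 and NED-NSCs for the other pairs. Cxcl10 was above background on no array of iPS-cNSCs, iPS-NSCs #3, ESCs and MEFs, and the members were selected on these levels.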

How the data were processed

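Per the labels and the study's methods, RNA was hybridised to Illumina MouseRef-8 v2 BeadChips and the authors extracted signals with GenomeStudio 2011.1. The deposited log2 values, quantile normalized by the authors, covered 25697 probes on 14 arrays and were used as deposited. Deposited raw signals (intensity, arbitrary units) and their detection p-values were matched by name for 10 arrays, and served for alternatives and the background check. A further 8 columns (signal and detection p-value) matched no sample by name and were not used. The number of arrays limits the precision.

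Probes took their gene from the platform annotation (23978 with 1 symbol, 1719 with none). A probe was kept at or above 7.7 on at least 7 of 14 arrays (12195 probes), and a gene was its brightest kept probe. limma 3.58.1 in R 4.3.3 was fitted to all 14 arrays with 1 mean per group (7 residual degrees of freedom), in place of the methods' local-pooled-error test, and was tested on simulated data. Benjamini-Hochberg adjustment ran over all kept probes. Where a group had no array at or above 7.7, the fold is a bound, against the lowest value at or above 7.7 on each of its arrays. Named genes were the members, the 3 largest called rises and falls of the lists per comparison without array overlap, the genes most like each member, and known receptors and partners. The members and lists were chosen with earlier results of these data known. Alternatives covered normalization, filter, background level, replicate block, test, probe choice, starting values and leaving out each array.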

Additional observations from a re-analysis of the deposited data

Results flagged for a closer look

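The effect against brain-NSCs differed between iPS-NSCs #1 and iPS-NSCs #3 by the test of the difference itself (limma) for Ifitm3 (3.38 on the log2 scale), Lcn2 (1.26) and Tnfaip3 (1.19), each higher in iPS-NSCs #1. It differed in the same way between iPS-cNSCs and NED-NSCs for Il18 (1.23, higher in iPS-cNSCs) and for Lcn2 (-5.62), Gbp2 (-3.05) and Socs3 (-2.12), lower in iPS-cNSCs. All these genes had been named because they were called with the largest differences in these same comparisons. That they passed the test was therefore fixed by the choice. Of the 3 Gbp2 probes, 2 were above background in no group, so the Gbp2 difference rests on 1 probe.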

How the results depend on the processing

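With 2 arrays per group, and lowest raw signals that differ between groups, members near 7.7 have the least certain differences. No member difference over 2-fold changed sign under any alternative. The replicate block left the count of called genes at 411, 563, 523, 353, 1770, 2084, 255 and 453 in the 8 comparisons in the order of the report, and the local-pooled-error test gave the same counts, because every gene over 2-fold passed either test, so this says little about stability. Same-numbered arrays did not deviate together (r from -0.24 to 0.12 over 21 pairs of groups, 3 over 0.1), so the numbers were not taken as pairing the samples.

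Leaving out 1 array moved the counts of all genes and of the 69 listed genes to 408 to 439 and 5 to 7 (iPS-NSCs #1), 557 to 585 and 10 to 11 (iPS-NSCs #3), 523 to 581 and 5 to 7 (iPS-cNSCs), 346 to 377 and 4 to 6 (NED-NSCs), 1767 to 1795 and 16 to 17 (ESCs), 2084 to 2109 and 17 to 19 (MEFs), 255 to 268 and 3 to 4 (iPS-NSCs #1 against #3), and 428 to 548 and 6 to 7 (iPS-cNSCs against NED-NSCs).

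Alternatives from raw signals were not run for the 3 comparisons with the iPS-NSC lines, whose signals were not matched by name. Starting from raw signals with neqc background correction gave 1500 and 19 (iPS-cNSCs), 861 and 12 (NED-NSCs), 2984 and 34 (ESCs), 3477 and 33 (MEFs) and 1286 and 25 (iPS-cNSCs against NED-NSCs). Member differences moved by up to 2.38, and 7 passed 2-fold, among them Ccl2 in iPS-cNSCs (-2.22), Cxcl12 in NED-NSCs (-1.48) and Cxcl1 in MEFs (1.36). Raw signals centred on each array's median over all probes gave 1973 and 15 (iPS-cNSCs), 28 listed genes in MEFs, and 2548 and 19 (iPS-cNSCs against NED-NSCs). This setting moved the median of all genes to 0.56 in iPS-cNSCs, 0.26 in MEFs and 0.71 in iPS-cNSCs against NED-NSCs, from -0.05, -0.14 and -0.06. The share of calls that were higher went from 59.5 to 97% in iPS-cNSCs, 60.1 to 41.2% in NED-NSCs, 40.6 to 29.9% in ESCs, 44.8 to 73.7% in MEFs and 57.6 to 98% in iPS-cNSCs against NED-NSCs. The listed genes went from 1 higher and 4 lower to 12 and 3 (neqc 7 and 12) in iPS-cNSCs, from 4 and 0 to 2 and 1 (neqc 10 and 2) in NED-NSCs, from 14 and 4 to 25 and 3 (neqc 21 and 12) in MEFs, and from 1 and 6 to 15 and 4 (neqc 8 and 17) in iPS-cNSCs against NED-NSCs. The cause was not tested. It also turned the small difference of Cx3cl1 in iPS-cNSCs from -0.25 to 0.57, while 3 others within 0.2 changed sign under the mean of probes or without 1 array. Relative to that median, Cd14, Ccl7 and Cxcl1 stayed lower in iPS-cNSCs than in NED-NSCs, by -3.47, -2.92 and -3.30, and Fas in iPS-cNSCs was at -0.80 against brain-NSCs. Cx3cl1 in MEFs went from -1.37 to -0.97. Averaging a gene's kept probes put Fas at -0.94 in iPS-cNSCs and at -1 in NED-NSCs, both no longer over 2-fold, and Tnfrsf21 at 0.94 in iPS-NSCs #3, and Socs3 in NED-NSCs was 0.90 with median centring. A filter on both arrays of 1 group let in Cxcl10, which then passed the limits in NED-NSCs and in iPS-cNSCs against NED-NSCs.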
